A study of Homo sapiens with 12 samples.

Results

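The DNA replication and S phase genes examined here are 53 genes whose products prepare, start or carry out the copying of the genome. They were taken by gene name from a list of replication and S phase genes, and all 53 were found among the 58735 genes of the count table. RNA was sequenced from HK-2 cells, an established line of human proximal tubular epithelial cells, in 12 samples of 4 groups with 3 samples each. The control group received water, and the other groups were exposed for 48 h to iohexol at 75 mg I/mL, cisplatin at 5 μM or vancomycin at 4 mM. Iohexol is an iodinated contrast agent, cisplatin a platinum compound that crosslinks DNA and vancomycin a glycopeptide antibiotic, and each is known to injure kidney tubules. Every sample came from the same line, which is known to have been immortalised with the papillomavirus genes E6 and E7, whose products bind p53 and the retinoblastoma protein. Each drug was given at a single dose and time, and no labelling of replicating cells accompanies the counts.

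Replication origins are licensed in G1, when the origin recognition complex, CDC6 and CDT1 load the ring of MCM2 to MCM7 onto DNA. At the start of S phase the kinase of CDC7 and DBF4, with cyclin E and its partner kinase, turns the ring into a running helicase by adding CDC45 and the GINS complex, and primase, the polymerases, the clamp PCNA and its loader RFC then copy both strands. Many of these genes are transcribed in a burst at the G1/S border by E2F factors, which the retinoblastoma protein holds back, and in the adult kidney most tubular cells are quiescent while cultured lines cycle.

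To set the members' own DNA beside their counts, the letters of known cell cycle elements were searched in the RefSeq windows around the gene starts (GRCh38.p14, 250 bases before the start to 50 after it), of which 46 of the 53 members had one. The letters TTTCGCGC, TTTCCCGC or TTTGGCGC, on either strand, were present in the windows of 21 of the 46 members (45.7%) and in 763 of all 27305 windows (2.79%), which were not matched for base composition. CCAAT, the letters of the NF-Y box, on either strand, was present in 24 members (52.2%) and in 35.7% of all windows. TTTGAA or TTTAAA, the letters of the CHR element of late cell cycle genes, were present in 5 members (10.9%) and in 24.3% of all windows. A match describes the letters only and is not evidence of binding. MCM6 held 4 E2F matches, more than any other member, and MCM2, MCM3 and MCM7 held 2 each, with overlapping matches on the 2 strands counted separately, as in the longer run of capitals shown for MCM6. Below are the 6 members with an E2F match in the bases before the start that lie outside the annotated gene, each shown as 60 bases, 5′ to 3′ on the gene's strand, with the E2F letters in capitals. They lie at chr3:48188428-48188487 (minus strand, CDC25A), chr1:23531242-23531301 (minus, E2F2), chr6:52284883-52284942 (minus, MCM3), chr2:135876496-135876555 (minus, MCM6), chr20:5126648-5126707 (minus, PCNA) and chrX:24693755-24693814 (plus, POLA1).
CDC25A: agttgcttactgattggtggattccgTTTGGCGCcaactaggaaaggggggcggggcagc
E2F2: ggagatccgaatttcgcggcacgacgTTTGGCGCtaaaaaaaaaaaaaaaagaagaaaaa
MCM3: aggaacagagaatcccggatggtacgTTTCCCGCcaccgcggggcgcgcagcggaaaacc
MCM6: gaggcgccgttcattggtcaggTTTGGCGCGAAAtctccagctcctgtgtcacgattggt
PCNA: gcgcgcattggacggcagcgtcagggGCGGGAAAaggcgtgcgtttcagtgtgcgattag
POLA1: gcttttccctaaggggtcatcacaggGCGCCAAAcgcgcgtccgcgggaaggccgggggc

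MCM10, ORC6 and RRM1 are shown as a contrast, as their windows held CCAAT and none of the E2F letters. They were picked because their transcripts moved with cisplatin and vancomycin in the same directions as those of CDC25A and E2F2. CHAF1A and RFC1 also held CCAAT outside the annotated gene and no E2F letters, but were not called with cisplatin and fell with vancomycin. CCAAT, on either strand, also stood in the windows of CDC25A, MCM3, MCM6, PCNA and POLA1, where it is not capitalised above. E2F2 held none. The examples therefore say nothing on what the letters do. The 60 bases of MCM10, ORC6 and RRM1 lie at chr10:13161427-13161486, chr16:46689565-46689624 and chr11:4094625-4094684, all on the plus strand, with CCAAT in capitals.
MCM10: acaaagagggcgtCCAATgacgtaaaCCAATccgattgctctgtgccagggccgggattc
ORC6: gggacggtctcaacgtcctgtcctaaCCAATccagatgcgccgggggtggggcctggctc
RRM1: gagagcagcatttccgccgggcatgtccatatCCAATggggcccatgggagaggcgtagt

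The libraries held between 14057282 and 18177109 counts, and every member had at least 40 counts in every library and entered every test. As a share of each library, the members together made up 0.497% to 0.502% in the control group, between 0.476% and 0.490% under iohexol, between 0.591% and 0.606% under cisplatin and between 0.334% and 0.346% under vancomycin. Of 14 proximal tubule markers 9 had over 3 counts in every sample, while the endocytic receptor LRP2 did not exceed 3 counts and the anion transporter SLC22A6 was at 0 in all 12. Of 12 markers of other kidney and blood cells 6 did not exceed 3 counts in any sample, and their sum in CPM (the count scaled by the library's effective size) was 3.14 to 3.99 in the control group, between 7.25 and 7.29 under iohexol, between 3.31 and 4.73 under cisplatin and between 3.00 and 5.42 under vancomycin. Iohexol replicate 3 stood apart from its group. Its squared count differences from its partners were 16.5 and 17.5 times those of sampling noise (chi-square over degrees of freedom), where the pair of partners gave 3.82. Control replicate 1 gave 8.03 and 10.8 where the other control pair gave 3.24. The vancomycin samples were also spread, with 13.1 and 9.66 for replicate 2 against its partners and 6.24 between those. Nothing in the labels says that the replicates were separate cultures, so p-values measure the spread between these samples, which may be technical.

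The 3 drugs left different prints on the replication genes. With vancomycin 41 of the 53 members fell and 3 rose, with cisplatin 23 rose and 12 fell, and with iohexol 8 fell and none was called higher. A member was called when its adjusted p in edgeR's quasi-likelihood test with Benjamini-Hochberg adjustment over all genes was under 0.05. Of all genes tested, 29% were called up and 28.8% down with vancomycin, 29.2% up and 30.6% down with cisplatin, and 11.2% up and 9.77% down with iohexol. The median log2 fold change of the members was -0.53 with vancomycin, 0.12 with cisplatin and -0.12 with iohexol, where all genes tested had medians of -0.01, 0.01 and 0.01. With totals alone as the scale the members' medians were -0.61, 0.34 and -0.054, and the medians of all genes were shifted by -0.08, 0.22 and 0.07. The 3 comparisons share the 3 control samples. In bulk RNA, fewer cells in S phase and less of a transcript per cell cannot be told apart. The colour map of the members shows the 3 replicates of each group beside each other.

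**Figure D1:**
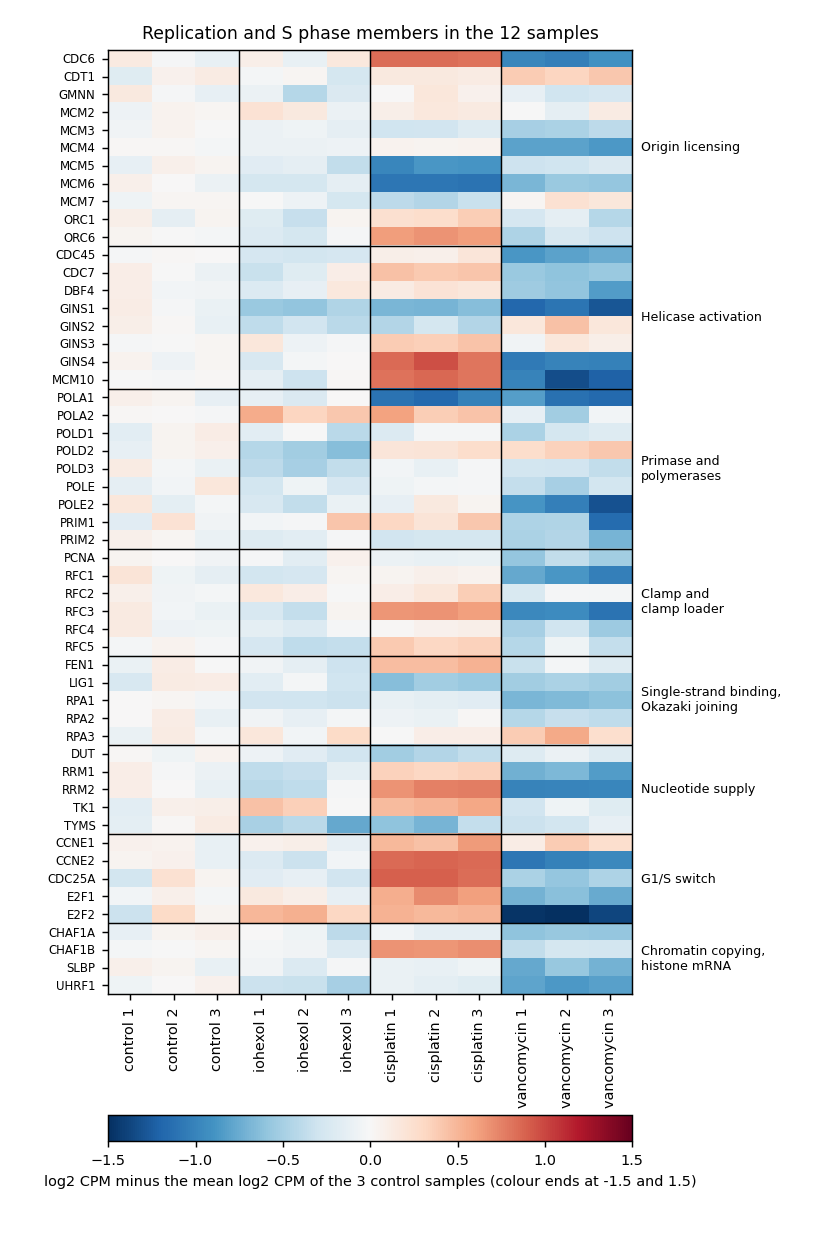
Each row is a member, grouped by its role, and each column a sample; the colour is the log2 CPM minus the mean of the 3 control samples, from -1.5 (blue) to 1.5 (red). The vancomycin columns are blue in most rows, the cisplatin columns red in the G1/S rows and blue at MCM5, MCM6 and POLA1, and E2F2 with vancomycin lies at or near the end of the scale.

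DEGs were taken here as called genes whose log2 fold change lay beyond 1 in size, where the study used the same fold with an unadjusted p. By edgeR 10 members were DEGs down with vancomycin and 2 with cisplatin. The 10 were E2F2, GINS1, MCM10, POLE2, POLA1, GINS4, CCNE2, RFC3, RRM2 and CDC6, and the 2 were POLA1 and MCM6. Of all genes, 7.65% were such DEGs down and 10.8% up with vancomycin, 8.72% down and 7.62% up with cisplatin, and 1.25% down and 4.02% up with iohexol. No member was a DEG upwards with any drug, nor downwards with iohexol, by edgeR, DESeq2 or limma-voom with their usual scaling. With totals alone as the scale the cisplatin count turned, to 5 DEGs up and 0 down. The shares of all genes under that scale were not counted. At an unadjusted p under 0.05 the members higher and lower were 3 and 12 with iohexol, 25 and 13 with cisplatin and 3 and 42 with vancomycin. The shares of all genes at that threshold were not counted, and the shares given for adjusted p are no measure for these counts. The moves of replication genes were thus mostly under 2-fold, and the plot of fold changes by role shows their sizes with standard errors.

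**Figure D2:**
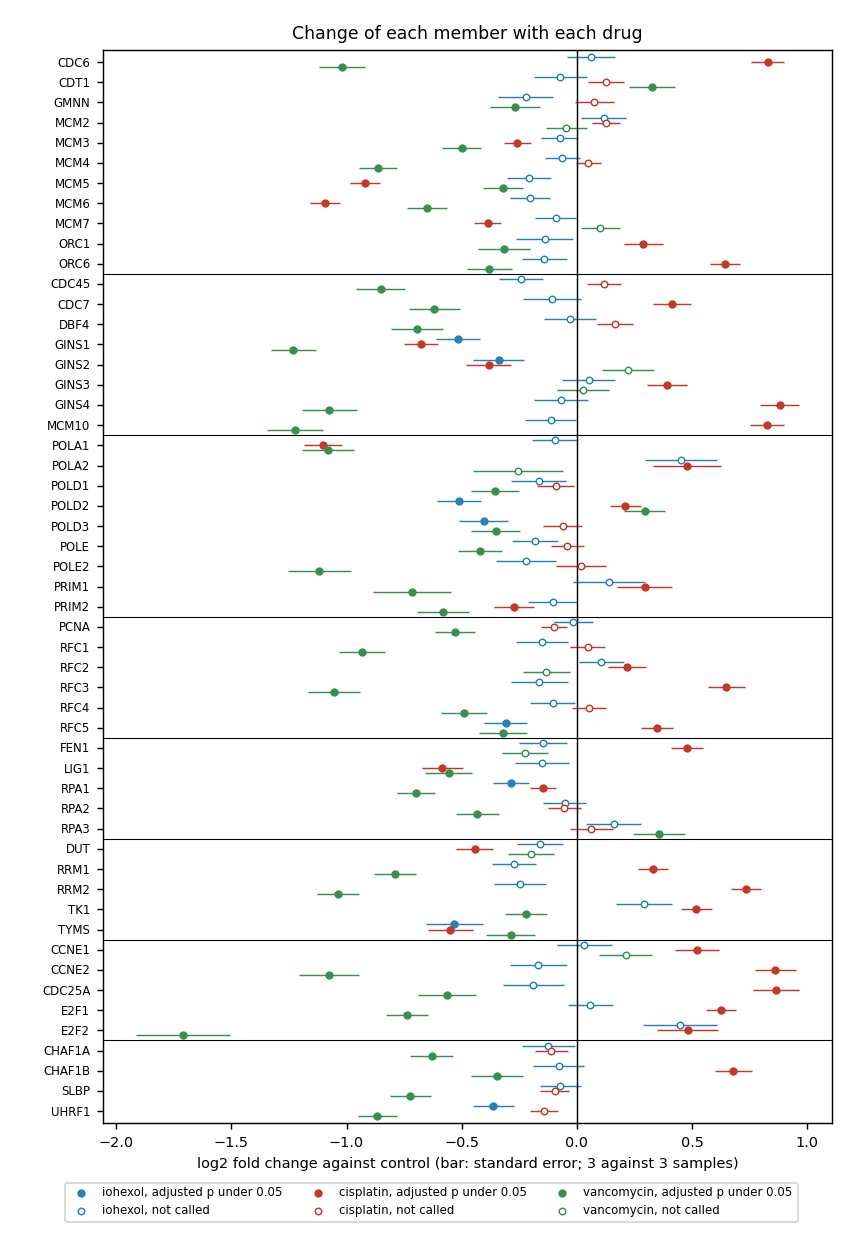
Points are the log2 fold changes of each member against the control group, bars their standard errors, with filled points for an adjusted p under 0.05. The green vancomycin points lie left of 0 for most members, the red cisplatin points lie on both sides, and the blue iohexol points lie near 0 apart from a few such as GINS1, TYMS and POLD2.

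All 5 genes of the G1/S switch rose with cisplatin, with a median log2 fold change of 0.62, and 4 of the 5 fell with vancomycin. Among all genes 29.2% rose with cisplatin and 28.8% fell with vancomycin. E2F2, an activating E2F factor, stood at 9.73, 14.9 and 12.6 CPM in the control samples, at 17.3, 17.7 and 15.2 with iohexol, at 17.5, 17.2 and 17.4 with cisplatin and at 4.32, 2.70 and 4.62 with vancomycin. Its vancomycin samples lay far below every other sample, and its cisplatin and iohexol samples lay above all 3 controls. By edgeR it fell by 1.71 on the log2 scale with vancomycin (SE 0.20, adjusted p = 1.34e-07), the largest change of any member with any drug, and rose by 0.48 with cisplatin (SE 0.13, adjusted p = 0.00477). With iohexol its log2 fold change of 0.45 (SE 0.16) was not called (adjusted p = 0.0666). E2F1, its more abundant relative, rose by 0.62 with cisplatin (SE 0.07) and fell by 0.74 with vancomycin (SE 0.09).

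CCNE2, cyclin E2, which drives entry into S phase, stood at 21.3, 21.8 and 19.2 CPM in the control samples and 18.03, 16.63 and 20.17 with iohexol. It reached 37.6, 38.2 and 37.6 CPM with cisplatin and 9.70, 10.2 and 10.5 with vancomycin, so that neither group overlapped the controls. By edgeR the rise with cisplatin was 0.86 on the log2 scale (SE 0.09, adjusted p = 3.00e-07) and with vancomycin CCNE2 fell by 1.08 (SE 0.13, adjusted p = 1.88e-07). Its exons overlap those of INTS8 on the opposite strand over 37.1% of their bases, and INTS8 had 244% as many counts, so that without a stated strand setting reads there cannot be assigned with certainty. INTS8 itself had a log2 fold change of 0.07 with cisplatin (adjusted p = 0.472 by edgeR) and fell by 0.97 with vancomycin. CCNE1, cyclin E1, rose by 0.52 with cisplatin (SE 0.10) and was not called with vancomycin, at 0.21 (SE 0.12). The ratio of CCNE2 to CCNE1 per kilobase of exons, in which scaling between libraries cancels, was 0.490, 0.506 and 0.501 in the control samples, 0.646, 0.677 and 0.582 with cisplatin and 0.216, 0.188 and 0.212 with vancomycin. The counts given to the 2 cyclins E therefore moved by unequal amounts with both drugs. Reads from INTS8 may have a part in this, and the 2 genes were not compared by a test.

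CDC25A is the phosphatase that removes the brake from the S phase kinases. It measured 25.8, 36.6 and 32.0 CPM in the control samples, 27.6, 28.7 and 25.6 with iohexol, 58.3, 58.3 and 55.8 with cisplatin and 22.3, 20.8 and 22.7 with vancomycin. The cisplatin samples were above and the vancomycin samples below all controls, while the iohexol samples overlapped them. By edgeR the log2 rise with cisplatin was 0.86 (SE 0.10, adjusted p = 9.27e-07) and with vancomycin CDC25A fell by 0.57 (SE 0.13, adjusted p = 0.000467).

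Of the 11 origin licensing genes, 3 rose and 4 fell with cisplatin, counts near the shares of all genes (29.2% and 30.6%). The 3 were the loaders CDC6, ORC6 and ORC1 and the 4 were subunits of the ring, MCM3, MCM5, MCM6 and MCM7. With vancomycin 8 of the 11 licensing genes fell and only CDT1 rose, where 28.8% of all genes fell and 29% rose. CDC6, the ATPase that loads the ring, measured 90.1, 80.9 and 76.2 CPM in the control samples, 87.5, 75.8 and 91.8 with iohexol, 146.9, 147.7 and 144.8 with cisplatin and 41.6, 40.3 and 43.7 with vancomycin. Cisplatin and vancomycin samples lay on opposite sides of the controls with no overlap, and the iohexol samples lay among the controls or just outside them. By edgeR CDC6 rose by 0.83 on the log2 scale with cisplatin (SE 0.07, adjusted p = 2.04e-08) and fell by 1.02 with vancomycin (SE 0.10, adjusted p = 5.97e-09). ORC6, a subunit of the origin recognition complex, rose by 0.64 (SE 0.07) and fell by 0.38 (SE 0.10) with the same drugs, and ORC1, its largest subunit, rose by 0.29 (SE 0.08) and fell by 0.32 (SE 0.11).

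CDT1, the partner of CDC6, did not follow it. It stood at 52.9, 62.9 and 65.3 CPM in the control samples, 58.7, 61.26 and 49.97 with iohexol, 66.3, 66.4 and 65.3 with cisplatin and 78.6, 75.4 and 79.7 with vancomycin. All 3 vancomycin samples were the highest of the 12, and CDT1 rose by 0.33 there on the log2 scale (SE 0.10, adjusted p = 0.00666 by edgeR). The ratio of CDT1 to CDC6 per kilobase was 0.978, 1.29 and 1.43 in the control samples, 0.752, 0.749 and 0.751 with cisplatin and 3.15, 3.12 and 3.04 with vancomycin. GMNN encodes geminin, the inhibitor of CDT1, and fell by 0.27 with vancomycin (SE 0.11).

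The 6 subunits of the ring, which assemble in equal number, did not move together. In the control samples MCM7 had the highest level per kilobase of exons, 75.0 ± 2.69 (SD, n = 3) CPM per kilobase, and MCM5 the lowest, 26.3 ± 1.98. The length used is the union of all annotated exons, so this order depends on the annotation. Without division by length MCM4 was highest, with a control mean of 347.1 CPM, and MCM6 lowest, with 164.5. With cisplatin MCM6 fell by 1.09 on the log2 scale (SE 0.07, adjusted p = 1.97e-10 by edgeR) and MCM5 by 0.92 (SE 0.07, adjusted p = 2.56e-09), whereas MCM4 and MCM2 were not called. MCM6 read 173.4, 164.8 and 155.1 CPM in the control samples, 136.9, 136.7 and 149.6 with iohexol, 77.66, 77.55 and 76.02 with cisplatin and 101.8, 112.0 and 110.0 with vancomycin. The 3 drug groups all lay below the controls, and the iohexol difference of -0.20 (SE 0.09) was not called. MCM5 read 176.7, 204.1 and 198.8 CPM in the control samples, 171.3, 174.9 and 149.6 with iohexol, 97.6, 104.9 and 104.2 with cisplatin and 155.7, 156.3 and 165.8 with vancomycin. MCM5 was thus lowest with cisplatin, with no overlap with any other group.

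With vancomycin the order within the ring differed. MCM4 fell most, by 0.87 on the log2 scale (SE 0.08, adjusted p = 3.88e-09 by edgeR), from 350.9, 350.4 and 340.0 CPM in the control samples to 198.5, 199.2 and 191.0. MCM6 fell by 0.65 (SE 0.09), MCM3 by 0.50 (SE 0.08) and MCM5 by 0.32 (SE 0.09), while MCM7 at 0.10 (SE 0.08) and MCM2 at -0.05 (SE 0.09) were not called. MCM2 was the member called in none of the 6 comparisons. The ratio of MCM4 to MCM6 per kilobase was 1.25 ± 0.05 in the control samples, 1.38 ± 0.06 with iohexol, 2.76 ± 0.04 with cisplatin and 1.08 ± 0.07 with vancomycin (SD, n = 3 each). The ratio of MCM2 to MCM5 was 1.47 ± 0.04, 1.83 ± 0.08, 3.03 ± 0.05 and 1.77 ± 0.11 in the same order. The plot of levels per kilobase sets the ring beside 2 other complexes.

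**Figure D3:**
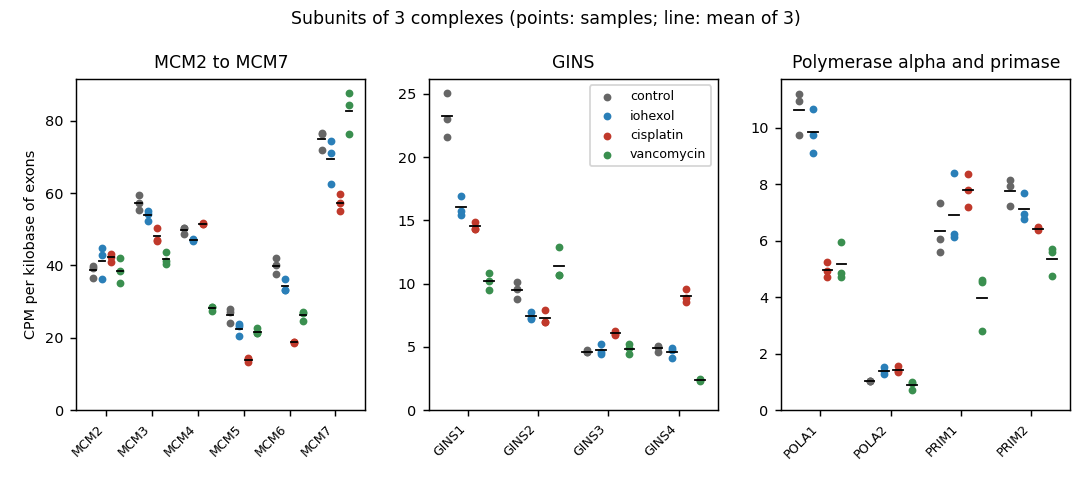
Points are the samples and lines the group means, in CPM per kilobase of exons, for the MCM ring, the GINS complex and the polymerase alpha and primase complex. With cisplatin MCM5 and MCM6 lie far below the control points while MCM2 and MCM4 do not, GINS1 and GINS4 move in opposite directions, and POLA1 falls without POLA2.

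Of the 8 genes of helicase activation, 4 rose with cisplatin and 2 fell, and 6 fell with vancomycin. Among all genes 29.2% rose and 30.6% fell with cisplatin, and 28.8% fell with vancomycin. MCM10, which helps the new helicase to open, measured 33.0, 32.8 and 33.6 CPM in the control samples, 30.3, 26.8 and 33.7 with iohexol, 58.2, 60.3 and 57.8 with cisplatin and 16.5, 13.1 and 14.2 with vancomycin. The cisplatin samples lay far above and the vancomycin samples far below the narrow range of the controls. By edgeR MCM10 rose by 0.83 on the log2 scale with cisplatin (SE 0.07, adjusted p = 4.54e-08) and fell by 1.22 with vancomycin (SE 0.12, adjusted p = 6.93e-09). CDC45, part of the active helicase, fell by 0.85 with vancomycin (SE 0.11) and had a log2 fold change of 0.12 with cisplatin (SE 0.07), which was not called. CDC7, the kinase that fires origins, rose by 0.41 with cisplatin (SE 0.08) and fell by 0.62 with vancomycin (SE 0.11). Its activator DBF4 fell by 0.69 with vancomycin (SE 0.11) and stood at 0.17 with cisplatin (SE 0.08), not called.

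The GINS complex has 4 subunits, and each had its own pattern. GINS1 read 101.8, 93.4 and 87.9 CPM in the control samples, 64.1, 62.6 and 68.8 with iohexol, 58.3, 58.3 and 60.6 with cisplatin and 41.6, 44.0 and 38.7 with vancomycin, with no control sample reached by any drug sample. By edgeR it fell by 0.52 with iohexol (SE 0.09, adjusted p = 0.0024), by 0.68 with cisplatin (SE 0.07, adjusted p = 4.08e-07) and by 1.23 with vancomycin (SE 0.10, adjusted p = 1.98e-10). GINS4 read 27.7, 25.3 and 27.3 CPM in the control samples, 22.5, 26.2 and 26.8 with iohexol, 48.4, 52.4 and 46.9 with cisplatin and 12.8, 13.2 and 13.2 with vancomycin. It was raised in every cisplatin sample and lowered in every vancomycin sample, with log2 fold changes of 0.88 (SE 0.09, adjusted p = 1.05e-07 by edgeR) and -1.08 (SE 0.12, adjusted p = 4.70e-08). The ratio of GINS4 to GINS1 per kilobase was 0.211 ± 0.017 in the control samples, 0.287 ± 0.025 with iohexol, 0.620 ± 0.046 with cisplatin and 0.235 ± 0.016 with vancomycin (SD, n = 3 each). GINS2 fell by 0.34 with iohexol (SE 0.11), a call lost on leaving out any of the 6 samples (edgeR adjusted p from 0.0531 to 0.147), and by 0.38 with cisplatin (SE 0.10), and its 3 vancomycin samples lay above the controls at 34.9, 41.9 and 34.9 CPM without a call (adjusted p = 0.0940 by edgeR). GINS3 rose by 0.39 with cisplatin (SE 0.09) and was not called otherwise against the controls.

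Of the 9 genes of primase and the polymerases 7 fell with vancomycin and POLD2 rose, and with cisplatin 3 rose and 2 fell. The cisplatin counts were near the shares of all genes (29.2% and 30.6%), and 28.8% of all genes fell with vancomycin. POLA1, the catalytic subunit of polymerase alpha, measured 71.0, 69.4 and 61.7 CPM in the control samples, 61.6, 57.7 and 67.6 with iohexol, 31.1, 29.8 and 33.2 with cisplatin and 37.7, 30.8 and 29.8 with vancomycin. Cisplatin and vancomycin samples overlapped each other and all lay below the lowest control, while the iohexol samples overlapped the controls. By edgeR POLA1 fell by 1.10 with cisplatin (SE 0.08, adjusted p = 3.82e-09) and by 1.08 with vancomycin (SE 0.11, adjusted p = 1.51e-08). Its gene spans 303.1 kb. Over the 53 members the Spearman correlation of the cisplatin log2 fold change with gene span was -0.26, and over 12979 protein-coding genes it was -0.47, genes being no independent replicates. With vancomycin it was -0.33 over the members and -0.28 over 13174 protein-coding genes, and with iohexol -0.13 and -0.04 over 13027. Of the other members over 100 kb, PRIM2 (332.0 kb) fell by 0.27 with cisplatin (SE 0.09), POLD3 (175.3 kb) stood at -0.06, and RFC3 (148.5 kb) and GINS3 (111.1 kb) rose. The span of GINS3 is uncertain. Its RefSeq window lies at chr16:58392221-58392520 on the plus strand, well inside the annotated gene at chr16:58295080-58406144. A part of gene span in these changes was not tested.

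POLA2, the accessory subunit of polymerase alpha, had the lowest level per kilobase of all members, 1.03 ± 0.014 CPM per kilobase in the control samples (SD, n = 3). It read 5.95, 5.90 and 5.79 CPM there, 8.71, 7.35 and 7.82 with iohexol, 8.97, 7.63 and 7.97 with cisplatin and 5.38, 4.05 and 5.73 with vancomycin. The iohexol and cisplatin samples lay above the controls, with a call for cisplatin only (log2 fold change 0.48, SE 0.15, adjusted p = 0.00966 by edgeR); the difference between the 2 drugs is not thereby shown. Of its 31-base words 59.2% recur in other genes, chiefly in an overlapping gene of the same strand, so its level is uncertain. The share was also high for TYMS (48.5%), CCNE2 (40.1%), RRM2 (39.4%), DBF4 (35.7%), UHRF1 (34.8%) and GINS4 (30.4%). Their levels and ratios per kilobase carry the same limit.

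POLD2, a subunit of polymerase delta, was the member with the most unusual signs. It stood at 106.2, 119.1 and 121.3 CPM in the control samples, 85.5, 80.6 and 73.8 with iohexol, 130.5, 132.0 and 138.8 with cisplatin and 138.0, 147.0 and 152.7 with vancomycin. Iohexol samples lay below and both other groups above the controls. By edgeR POLD2 fell by 0.51 with iohexol (SE 0.10, adjusted p = 0.0028) and rose by 0.21 with cisplatin (SE 0.07, adjusted p = 0.011) and by 0.29 with vancomycin (SE 0.09, adjusted p = 0.00636). POLD3, its partner subunit, read 45.7, 41.3 and 39.3 CPM in the control samples, 31.9, 29.8 and 32.5 with iohexol, 40.7, 38.8 and 41.4 with cisplatin and 34.8, 34.4 and 32.6 with vancomycin. It fell by 0.40 with iohexol (SE 0.11, adjusted p = 0.0192 by edgeR) and by 0.35 with vancomycin (SE 0.11). The iohexol call was lost without control replicate 1 or 2 or iohexol replicate 1 or 2 (edgeR adjusted p from 0.0509 to 0.0802). The catalytic subunit POLD1 fell by 0.36 with vancomycin.

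POLE2, a subunit of the leading-strand polymerase epsilon, measured 27.8, 22.3 and 24.2 CPM in the control samples, 20.9, 19.0 and 23.1 with iohexol, 22.6, 27.2 and 25.3 with cisplatin and 13.3, 12.1 and 9.86 with vancomycin. The vancomycin samples stood alone at the bottom. POLE2 fell by 1.12 there on the log2 scale (SE 0.14, adjusted p = 2.47e-07 by edgeR), while POLE, the catalytic subunit, fell by 0.42 (SE 0.09). PRIM1 and PRIM2, the subunits of primase, fell by 0.72 (SE 0.17) and 0.58 (SE 0.11) with vancomycin, and with cisplatin PRIM1 rose by 0.29 (SE 0.12) where PRIM2 fell.

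Of the clamp and its loader, 5 of 6 genes fell with vancomycin and 3 of 6 rose with cisplatin. The matching shares of all genes were 28.8% and 29.2%. PCNA, the sliding clamp, had the highest level per kilobase of all members, 192.3 CPM per kilobase in the control samples. That rank rests on the annotated exon length, as MCM4 was higher in CPM. PCNA measured 291.9, 283.2 and 273.5 CPM in the control samples, 278.8, 253.9 and 296.6 with iohexol, 265.9, 262.5 and 263.9 with cisplatin and 189.0, 219.7 and 196.6 with vancomycin. The vancomycin samples lay clearly lower, and the cisplatin samples lay just under the controls without a call. PCNA fell by 0.53 with vancomycin (SE 0.09, adjusted p = 1.23e-05 by edgeR) and its log2 fold change with cisplatin was -0.10 (SE 0.06, adjusted p = 0.133). RFC3, a small subunit of the clamp loader, rose by 0.65 with cisplatin (SE 0.08) and fell by 1.05 with vancomycin (SE 0.11). RFC1, the large subunit, fell by 0.93 with vancomycin (SE 0.10) and stood at 0.05 with cisplatin. RFC5 fell with iohexol by 0.31 (SE 0.09) and with vancomycin by 0.32 (SE 0.11), and rose by 0.35 with cisplatin (SE 0.07). Its iohexol call was lost on leaving out any sample but iohexol replicate 3 (edgeR adjusted p from 0.0551 to 0.150).

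RPA coats single-stranded DNA at the fork. RPA1, its large subunit, measured 243.8, 247.2 and 235.4 CPM in the control samples, 198.3, 197.1 and 193.3 with iohexol, 223.5, 218.3 and 215.6 with cisplatin and 150.7, 152.8 and 157.6 with vancomycin. The 4 groups formed separate bands with no overlap, controls highest and vancomycin lowest. By edgeR RPA1 fell by 0.29 with iohexol (SE 0.08, adjusted p = 0.0231), by 0.15 with cisplatin (SE 0.06, adjusted p = 0.0345) and by 0.70 with vancomycin (SE 0.08, adjusted p = 1.55e-07). The iohexol call was lost on leaving out any sample but iohexol replicate 3 (edgeR adjusted p from 0.0509 to 0.120), and the cisplatin call on leaving out control replicate 2 or any cisplatin sample (from 0.0692 to 0.139). With totals alone as the scale its cisplatin difference had the other sign, 0.07, and no call. RPA2, the middle subunit, fell by 0.43 with vancomycin. RPA3, the smallest, read 25.6, 29.9 and 27.0 CPM in the control samples, 30.95, 26.6 and 33.53 with iohexol, 27.4, 29.4 and 29.4 with cisplatin and 35.8, 40.7 and 32.6 with vancomycin. Only its vancomycin samples all lay above the controls, with a rise of 0.36 (SE 0.11, by edgeR with an adjusted p of 0.01), which lost its call without vancomycin replicate 2 (0.28, adjusted p = 0.0610).

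At the lagging strand FEN1, the flap nuclease, rose by 0.48 with cisplatin (SE 0.07) while LIG1, the ligase that seals the fragments, fell with cisplatin and vancomycin. LIG1 measured 63.1, 81.0 and 80.7 CPM in the control samples, 66.6, 73.0 and 60.3 with iohexol, 47.7, 51.8 and 50.6 with cisplatin and 51.9, 53.6 and 52.0 with vancomycin. Both of the latter groups lay below all controls and close to each other. By edgeR LIG1 fell by 0.58 with cisplatin (SE 0.09, adjusted p = 2.16e-05) and by 0.56 with vancomycin (SE 0.10, adjusted p = 6.81e-05).

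Of the genes of nucleotide supply, 3 rose and 2 fell with cisplatin, and 4 of 5 fell with vancomycin. Over all genes 29.2% rose and 30.6% fell with cisplatin, and 28.8% fell with vancomycin. RRM2, the S phase subunit of ribonucleotide reductase, measured 157.7, 147.5 and 136.6 CPM in the control samples, 110.1, 113.1 and 145.0 with iohexol, 235.3, 249.2 and 251.1 with cisplatin and 73.2, 74.2 and 74.3 with vancomycin. Cisplatin samples were all above and vancomycin samples all below the controls, and iohexol replicate 3 lay among the controls while its partners lay below them. By edgeR RRM2 rose by 0.73 with cisplatin (SE 0.07, adjusted p = 3.86e-08) and fell by 1.04 with vancomycin (SE 0.09, adjusted p = 7.49e-10). RRM1, the large subunit, rose by 0.33 (SE 0.06) and fell by 0.79 (SE 0.09) with the same drugs. The ratio of RRM2 to RRM1 per kilobase was 0.753 ± 0.009 in the control samples, 0.997 ± 0.041 with cisplatin and 0.636 ± 0.040 with vancomycin (SD, n = 3 each), so the counts of the S phase subunit moved further in both directions. As 39.4% of the 31-base words of RRM2 recur in other genes, its level is uncertain.

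TYMS, thymidylate synthase, which makes the thymine nucleotide, fell with all 3 drugs, as did GINS1 and RPA1 and no other member. It read 42.8, 47.8 and 51.5 CPM in the control samples, 33.6, 35.7 and 27.6 with iohexol, 30.95, 29.18 and 36.97 with cisplatin and 37.7, 39.0 and 43.2 with vancomycin. Iohexol and cisplatin samples lay below all controls, whereas vancomycin replicate 3 lay within the control range. By edgeR TYMS fell by 0.53 with iohexol (SE 0.12, adjusted p = 0.0103), by 0.55 with cisplatin (SE 0.10, adjusted p = 0.000114) and by 0.29 with vancomycin (SE 0.11, adjusted p = 0.0243). The last call was lost without control replicate 2, control replicate 3, vancomycin replicate 1 or vancomycin replicate 2, with adjusted p from 0.0678 to 0.111. ENOSF1 on the opposite strand overlaps 39.2% of the TYMS exon bases and had 64.8% as many counts, so reads there cannot be assigned with certainty. ENOSF1 fell by 1.19 with cisplatin and by 0.80 with vancomycin, and had a log2 fold change of 0.23 with iohexol that was not called. TK1, thymidine kinase of the salvage path, rose by 0.52 with cisplatin (SE 0.07) and fell by 0.22 with vancomycin (SE 0.09). DUT, which removes dUTP, fell by 0.44 with cisplatin (SE 0.08).

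The genes that copy chromatin and shape histone mRNA all fell with vancomycin, 4 of 4, where 28.8% of all genes fell. UHRF1, which reads hemimethylated DNA behind the fork, measured 152.6, 160.1 and 166.7 CPM in the control samples, 127.4, 127.1 and 113.3 with iohexol, 149.1, 144.7 and 140.8 with cisplatin and 92.4, 87.9 and 90.7 with vancomycin. All drug samples lay below the controls, the vancomycin samples by the widest gap. By edgeR UHRF1 fell by 0.36 with iohexol (SE 0.09, adjusted p = 0.0135) and by 0.87 with vancomycin (SE 0.09, adjusted p = 8.31e-09), and its cisplatin difference of -0.14 was not called (adjusted p = 0.0513). The iohexol call was lost without control replicate 2 or 3 (edgeR adjusted p = 0.0572 and 0.0530). SLBP, which binds the stem-loop of histone mRNA, fell by 0.72 with vancomycin (SE 0.09), and the assembly factor CHAF1A fell by 0.63. Its partner CHAF1B rose by 0.68 with cisplatin (SE 0.08) and fell by 0.35 with vancomycin (SE 0.11).

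The plot of 12 members in every sample collects those that turned in opposite directions and those that fell together.

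**Figure D4:**
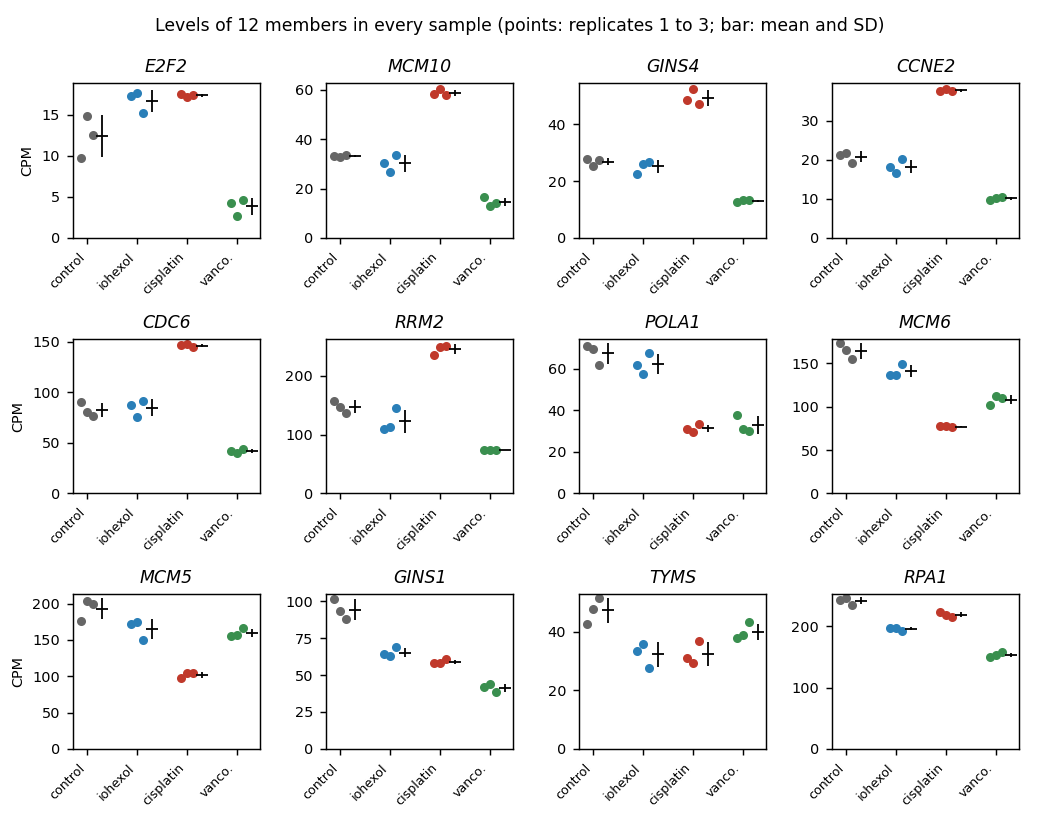
Each panel is a member, with its CPM in every sample (points, linear axis from 0) and the mean with SD beside them. E2F2, MCM10, GINS4, CCNE2, CDC6 and RRM2 are higher with cisplatin and lower with vancomycin than in the control group, POLA1, MCM6 and MCM5 are low with cisplatin, and GINS1, TYMS and RPA1 are lower in all 3 drug groups.

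Across the drugs, 18 of the 53 members were called in opposite directions with 2 drugs, 17 of them up with cisplatin and down with vancomycin and the last POLD2. A further 9 fell with both cisplatin and vancomycin, and 13 fell with vancomycin alone while not called with the others. These patterns, like the falls with all 3 drugs, were counted over the members only. Their share over all genes was not counted, so the patterns cannot be called particular to replication genes. Whether cisplatin and vancomycin differ was tested directly in the fit of all 12 samples. There 40 members were higher and 8 lower with cisplatin than with vancomycin by edgeR, where 30% of all genes were called higher and 34.7% lower. The widest differences on the log2 scale were 2.15 for E2F2 (SE 0.18), 2.01 for MCM10 (SE 0.11), 1.91 for GINS4 (SE 0.10), 1.90 for CCNE2 (SE 0.11), 1.81 for CDC6 (SE 0.09) and 1.73 for RRM2 (SE 0.10). The 17 members with opposite calls were all called higher with cisplatin in this contrast, which their choice by calls on the same samples made nearly certain. GINS2, MCM5, MCM7, MCM6, RPA3, TYMS, DUT and CDT1 were lower with cisplatin, GINS2 by -0.65 (SE 0.11) and MCM5 by -0.64 (SE 0.08). POLA1, LIG1, POLD1, POLD2 and MCM2 were not called, and the POLA1 difference was -0.06 (SE 0.11). Without cisplatin replicate 1 the members lower with cisplatin were 4. With totals alone as the scale 45 were higher and 3 lower, the median of all genes then being shifted by 0.33. How many of all genes were called under that scale was not counted. CDT1, DUT and TYMS changed sign under that scale.

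**Figure D5:**
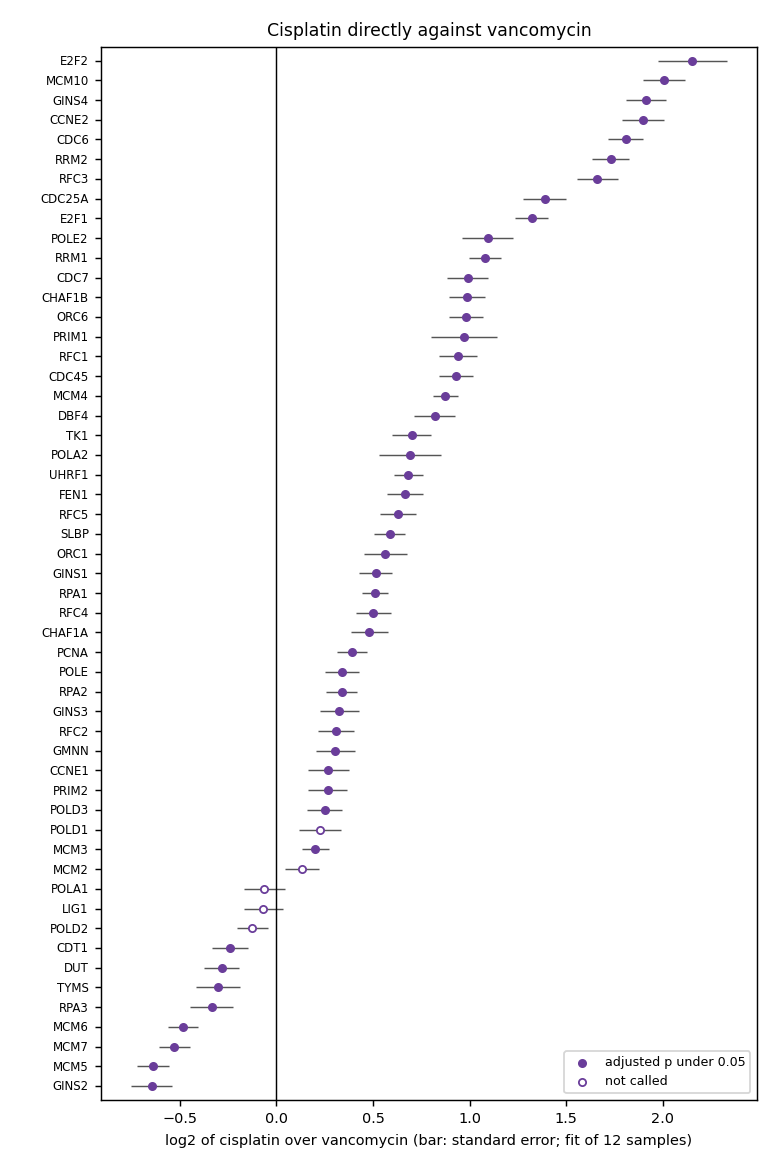
Points are the log2 ratios of cisplatin over vancomycin from the fit of 12 samples, sorted, with standard errors as bars and filled points for an adjusted p under 0.05. Most members lie right of 0, with E2F2 at 2.15, and GINS2, MCM5, MCM7 and MCM6 lie farthest left.

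Against iohexol, cisplatin had 23 members higher and 6 lower (26% and 27.9% of all genes), and vancomycin 5 higher and 32 lower (29% and 27.6%). CDC25A at 1.07 (SE 0.11) and CCNE2 at 1.05 (SE 0.10) were the furthest up and POLA1 at -0.99 (SE 0.10) the furthest down with cisplatin over iohexol. With vancomycin over iohexol E2F2 at -2.10 (SE 0.18) was the furthest down and POLD2 at 0.87 (SE 0.08) the furthest up. The count of 8 members lower with iohexol than in the control group (GINS1, GINS2, POLD2, POLD3, RFC5, RPA1, TYMS and UHRF1) was the least stable, since it was 3 or 4 when any sample other than iohexol replicate 3 was left out and 10 without that replicate. With totals alone as the scale 2 members were up and 5 down with iohexol, and 33 up and 8 down with cisplatin. The median of all genes was then shifted by 0.07 and 0.22, and the shares of all genes called were not counted.

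Of the members called against the controls, 5 lost the call with iohexol, 6 with cisplatin and 6 with vancomycin when some 1 sample was left out. Those not yet described were small changes. With cisplatin these were ORC1 (without control replicate 2), POLA2 (without cisplatin replicate 1), POLD2 (without cisplatin replicate 3), PRIM1 (without control replicate 1 or 3 or cisplatin replicate 1 or 3) and RFC2 (without control replicate 2 or 3 or cisplatin replicate 2 or 3). With vancomycin they were GMNN (without control replicate 1 or 2 or vancomycin replicate 2 or 3), ORC1 (without control replicate 1 or 3 or vancomycin replicate 3), RFC5 (without control replicate 2 or vancomycin replicate 1 or 3) and TK1 (without control replicate 2 or 3 or vancomycin replicate 1 or 3).

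The promoter letters were set beside the calls as a description. Of the members with a window, the E2F letters were present in 7 of the 21 that rose with cisplatin, in 8 of the 11 that fell and in 6 of the 14 not called. With vancomycin they were present in 15 of the 35 that fell, in 1 of the 2 that rose and in 5 of the 9 not called. The E2F letters printed above thus stand both before CDC25A and E2F2, which rose with cisplatin, and before MCM6, MCM3 and POLA1, which fell.

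Genes of the same machinery outside the 53 were counted in lists chosen by function, to be read beside the 29.2% of all genes called up and 30.6% called down with cisplatin, 29% and 28.8% with vancomycin, and 11.2% and 9.77% with iohexol. Of 29 other fork and origin genes, 12 rose and 4 fell with cisplatin and 3 rose and 19 fell with vancomycin. With cisplatin MCM9, a helicase of repair, fell by 0.94 (SE 0.16) and CLSPN, the fork mediator of the checkpoint, rose by 0.81 (SE 0.08). With vancomycin ATAD5, which unloads PCNA, fell by 1.28 (SE 0.12) and WDHD1, which ties polymerase alpha to the helicase, fell by 1.21 (SE 0.10). RNASEH2A, a subunit of ribonuclease H2, had a larger fall of 1.92 (SE 0.51) on only 2 to 36 counts per library. Of 10 genes of chromatin maintenance at the fork, 8 fell with vancomycin, HELLS, a chromatin remodeller, by 1.39 (SE 0.10), while with cisplatin 4 rose and 3 fell. Of 10 genes of the S phase checkpoint, 5 fell with vancomycin and 4 rose and 1 fell with cisplatin, and ATRIP, the partner of ATR, rose there by 0.88 (SE 0.12). Of 19 further genes of nucleotide metabolism, 11 fell and 1 rose with vancomycin, among them CTPS1, which makes CTP, by 1.24 (SE 0.08); with cisplatin 5 rose and 6 fell, near the shares of all genes. With iohexol 1 fork or origin gene rose and 1 fell, 3 genes of chromatin maintenance fell, 2 genes of nucleotide metabolism rose and 3 fell, and no gene of the checkpoint list was called by edgeR.

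Larger single changes stood among the regulators of the G1/S step. CDKN1A, which encodes the kinase inhibitor p21, rose by 0.66 with iohexol (SE 0.14), by 1.55 with cisplatin (SE 0.09) and by 2.62 with vancomycin (SE 0.10). CDK6, a kinase that phosphorylates the retinoblastoma protein, fell by 1.29 (SE 0.11), 1.54 (SE 0.06) and 1.72 (SE 0.10) with the same drugs, and CCND1, cyclin D1, fell by 1.803 with vancomycin (SE 0.09). CDKN1C, which encodes the inhibitor p57, rose by 1.57 with iohexol (SE 0.13) and 1.17 with vancomycin (SE 0.10) and fell by 1.16 with cisplatin (SE 0.10). CCND2, cyclin D2, fell by 1.15 with iohexol (SE 0.18) and 1.41 with cisplatin (SE 0.16). In all, of 14 cyclins, kinases and inhibitors of G1 and S, 2 rose and 5 fell with iohexol, 6 rose and 4 fell with cisplatin, and 5 rose and 6 fell with vancomycin. Of 16 E2F and pocket protein genes, 4 rose and 6 fell with cisplatin, near the shares of all genes, 3 rose and 10 fell with vancomycin, and 1 rose and 2 fell of the 15 tested with iohexol. The largest log2 rises in that list were 2.30 (SE 0.48) and 3.36 (SE 0.45) for LIN37, which had 2 to 42 counts per library. E2F8, a repressive E2F factor, rose by 0.89 with cisplatin (SE 0.12) and fell by 1.39 with vancomycin (SE 0.18), and RBL1, a pocket protein, fell by 0.68 (SE 0.07) and 0.99 (SE 0.10). Of 13 marks of G2 and mitosis, all fell with vancomycin, with a median of -0.82, whereas with cisplatin 2 rose and 6 fell and with iohexol 5 fell. The marks of G2 and mitosis thus fell beside the members under vancomycin, and their part in that result was not tested.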

How the data were processed

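The authors deposited raw read counts per gene for 12 samples, with a gene length in bases. Poly(A) RNA was prepared with an NEBNext kit. The submitters' processing notes name CASAVA 1.8, fastp, HISAT2 2.0.5, featureCounts 1.5.0-p3 and DESeq2 1.20.0 without their roles; the strand setting is not given in the sources used here. Gene positions match GENCODE release 29 on GRCh38.

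Counts were tested with edgeR 4.0.16 in R 4.3.3 (TMM, filterByExpr with 10 counts and a total of 15, glmQLFit, glmQLFTest), for each drug against the control group, and by contrasts in a fit of 12 samples for differences between drugs, on all genes, with Benjamini-Hochberg adjustment. The standard error is the log2 fold change divided by the square root of F. CPM use totals times TMM factors; the colour map adds a prior count of 2. Levels per kilobase use the deposited length, which for all 53 members equals the union of their annotated exons. Shared sequence was counted as 31-base words of GENCODE transcripts. RefSeq windows were searched for letters. Scripts were tested on simulated data. Alternatives were DESeq2 1.42.0, limma-voom 3.58.1, other scalings and filters, a replicate block, other sample sets and each replicate left out. Figures were drawn with matplotlib 3.10.9.

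Values were given in every sample for the 5 called members with the largest rise and fall per drug, for those called alike with all 3 drugs, and for the 6 widest opposite calls, with a few further members for their role. The ratios within a complex were chosen after the values were seen. Of the other lists up to 3 genes with a large change were named. The result of 1 further gene of these lists is not reported here. Members and lists were chosen with earlier results of these data known.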

Additional observations from a re-analysis of the deposited data

How the results depend on the processing

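Calls of members were counted again under each alternative. Of the counts and medians, 267 values stayed within 1.5 times or 1 SD and 27 did not. With totals alone as the scale, members up and down with iohexol were 2 and 5, DEGs up and down with cisplatin 5 and 0, members higher with vancomycin than iohexol 3, and members lower with cisplatin than vancomycin 3; the medians were -0.054 with iohexol, 0.34 with cisplatin and -0.61 with vancomycin. The fit of all 4 groups gave 13 members down with iohexol and a vancomycin median of -0.49, and the compared groups alone gave 3 members higher with vancomycin than iohexol. Without a filter on low counts the iohexol median was -0.16. Leaving out 1 replicate at a time gave 0 to 2 members up and 3 to 10 down with iohexol, medians of 0.088 to 0.123 with cisplatin and -0.56 to -0.48 with vancomycin, and 4 to 7 members lower with cisplatin than vancomycin. Shares of all genes called were not counted under the alternatives. Causes were not tested.

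Of the values of the members chosen by the naming rule, 448 kept their direction and call, 27 kept the direction without the call and 1 reversed, RPA1 with cisplatin at 0.074 with totals alone. Among these members the calls lost were those of POLD3, UHRF1 and RPA1 with iohexol, RPA1 with cisplatin and RPA3 and TYMS with vancomycin.

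The labels share replicate numbers, but samples with the same number did not deviate together (mean correlation -0.02 over 18 pairs, 0.01 over 36 others). With the number as a block, members down with iohexol were 3, the calls of GINS2, POLD3, RFC5, RPA1 and UHRF1 being lost; the 35 cisplatin calls were the same, and vancomycin gained FEN1 and GINS2.

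With 3 samples a group, small changes limit what can be called: the median standard error of a member was 0.11 with iohexol, 0.08 with cisplatin and 0.10 with vancomycin on the log2 scale.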
